A study of Rattus norvegicus with 4 samples.

Results

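The cytosolic ribosomal protein genes were followed in the colon of rats that did or did not receive mesenchymal stem cells. They were the array rows with a value on all 4 arrays whose RefSeq accession maps to a gene symbol made of Rpl or Rps and a digit, or to Rplp0, Rplp1, Rplp2 or Rpsa, with the Rps6k kinases left out. The rule found 66 genes, 39 of the large and 27 of the small subunit, with 1 row each among the 18350 rows with values. None of the 66 rows that the rule mapped was blank, and 65 rest on a curated (NM) and 1 on a predicted (XM) accession. Of 77 standard ribosomal protein symbols, 63 had a row. The other 14, such as Rpl7, Rpl12, Rpl26, Rps9 and Rps28, were not analysed here, and 3 members carry other symbols (Rpl17l5, Rpl36al1 and Rpl37l1).

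The arrays came from 4 male Sprague Dawley rats, 2 of a control group and 2 of the MSCT group, with 1 array per rat. MSCT rats had received green fluorescent protein-labelled mesenchymal stem cells by tail vein after colitis was induced with TNBS, a hapten given into the colon in ethanol. The sample labels call the control rats normal, whereas the series' design text and the paper compare MSCT with untransplanted colitis rats, so whether the controls also had TNBS is not settled and the group is called control. Age is not given, and the labels give no day of collection, for which the paper's Methods and Results name different days. Tissue was taken from the lesion region of the colon as a mixture of cell types, and fewer cells of a type cannot be told apart from less RNA per cell. The series compared colon gene expression of rats with and without the transplant.

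A ribosome is built from ribosomal RNA and a fixed set of proteins, each needed once per particle with the exception of the stalk proteins. Messenger RNAs of these proteins begin with a terminal oligopyrimidine tract, known as TOP, a C at the first base followed by an unbroken run of C or T. Through this tract mTOR signalling controls how much of the message is translated, so the amount of protein made can move while the amount of message does not. In the colon, ribosome production is high in the dividing cells of the crypt. The arrays measured message alone.

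The tract can be read at the annotated starts of these genes. Among 53 of the 66 genes matched in the RefSeq promoter table of assembly GRCr8, 21 (39.6%) had a C followed by 4 or more C or T from the first base of the transcript, against 3.11% of 27457 genes. The windows below show 15 bases before and the first 15 bases of the first exon, with the run of C and T that opens the transcript in capitals. They were chosen as genes whose values are described later, first those with the run and then 4 without it at the annotated start.
Rplp0, chr12:46718376-46718405, minus strand: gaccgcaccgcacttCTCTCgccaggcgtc
Rplp1, chr8:71290858-71290887, minus strand: gcaggcgcatgtgatCCTTTCCTCagctgc
Rpl10, chrX:157205835-157205864, plus strand: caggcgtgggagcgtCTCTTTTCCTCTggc
Rpl22, chr5:168117946-168117975, plus strand: gtagtgcgcccccctCCCTTTCTgcctcct
Rps27, chr2:177964592-177964621, minus strand: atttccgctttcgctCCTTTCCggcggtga
Rps15, chr7:10068101-10068130, minus strand: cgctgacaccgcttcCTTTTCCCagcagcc
Rps7, chr6:50999431-50999460, minus strand: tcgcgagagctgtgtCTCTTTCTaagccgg
Rpl29, chr8:115947628-115947657, plus strand: gggcctttctctttctcttccggtcccagg
Rpl11, chr5:153560788-153560817, minus strand: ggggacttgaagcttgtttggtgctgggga
Rps2, chr10:14251833-14251862, plus strand: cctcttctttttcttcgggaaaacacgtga
Rps21, chr3:187724023-187724052, plus strand: gaacgagccacttcctttctgtgttctccg

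In Rpl29, Rps2 and Rps21 a run of C and T lies in the window but does not open as such a tract at the annotated first base. A longer tract, of 5 or more pyrimidines after its opening base, began within 20 bases of the start in 44 of the 53 genes (83.0%) and 30.0% of all genes. Over the whole promoter window of 300 bases, 250 before the start and 50 after it, and on either strand, the letters CCGGAAG, which hold the core of the site bound by Ets family factors such as GABP, occurred in 16 of 53 genes (30.2%, against 9.63% of all). The letters GGGCGG, the core of a GC box, occurred in 29 (54.7%, against 36.0%) and the TATA-box letters TATAAA in 5 (9.43%, against 15.3%). These are letter matches in a reference annotation and were not tested as binding sites or as start sites in colon.

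Ribosomal protein messages were among the bright rows of every array. Their log2 intensities ran from 10.20 to 14.99, where the brightest row of an array lay between 15.49 and 15.82, and 49 rows were brighter on average than the brightest member. Of the 66 genes, 47 were within the top 5% of rows by mean intensity, and 65 within the top 25%. Of the sum over all rows, they made up 1.999% and 1.975% in the control rats and 2.016% and 2.083% in the MSCT rats. Both MSCT rats thus lay above both controls in this share, the nearest pair by less than the gap within either group. Brightness depends on the probe, so levels of different genes are not set against each other.

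**Figure D1:**
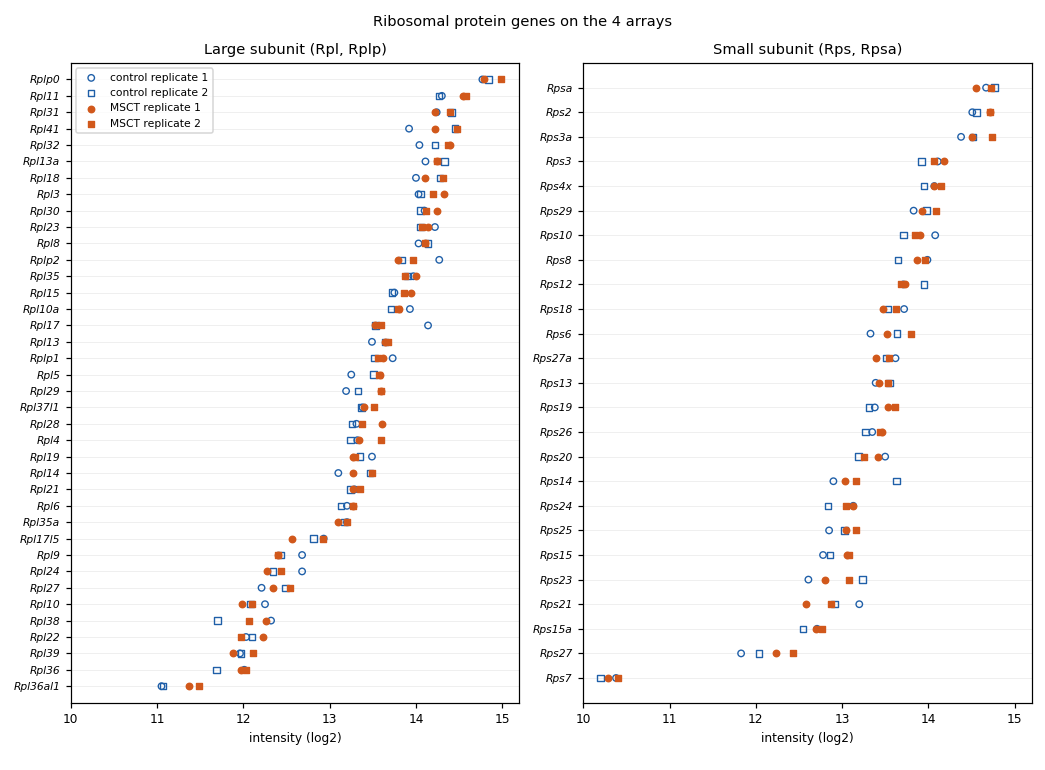
Log2 intensity of 63 of the 66 ribosomal protein genes on the 2 control and 2 MSCT arrays, large subunit and small subunit genes in separate panels, with 1 point per array. Open symbols are control and filled symbols MSCT, the values run from 10.20 to 14.99, and for 41 of all 66 genes the groups overlap.

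No ribosomal protein gene was called as different between the groups by limma with a constant prior variance for all rows. By limma, 0 of the 66 had an unadjusted p under 0.05, where 12.0% of all rows did, and 0 passed the screen of that p with over 2-fold, where 4.63% of all rows and 1.2% of the brightest 5% did. Rows this bright passed less often in general: 9.09% of rows at least as bright as the dimmest member and 4.9% of the brightest 5% of rows had a p under 0.05. The smallest unadjusted p among the 66 was 0.108, that of Rpl36al1, and the smallest adjusted p was 0.506. No row of the array passed an adjusted p of 0.05 in this fit. The fit draws each row's variance toward the prior. The median SD between replicates was 0.24 over all rows against 0.11 over the members. Rpl11, with an SD of 0.02 in each group, thus had a standard error of 0.18 and a 95% interval of -0.20 to 0.76. No member differed by more than 0.40, so standard errors of this size left no member able to reach p under 0.05. The count of 0 therefore does not show equal levels.

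The differences were small and lay mostly on the higher side. They ran from -0.40 to 0.40 (log2, MSCT minus control), with a median of 0.09 against -0.02 over all rows. In MSCT, 45 genes were higher and 21 lower by any size, 68.2% higher, against 48.0% of all rows and 54.8% of the brightest 5%. That split was 41 to 25 after quantile normalization and 52 to 14 when the arrays were set to equal medians, and the median was 0.06 and 0.13. With single arrays left out the median was as low as 0.03, without MSCT replicate 2, and that 1 array thus moved it by over 1.5 times.

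The members differed less than other rows. All 66 were within 0.5 on the log2 scale, against 73.3% of all rows, 86.8% of rows at least as bright as the dimmest member and 93.6% of the brightest 5%, and 52 (78.8%) were within 0.2, against 38.2% of all rows, 50.9% of rows as bright as the dimmest member and 63.4% of the brightest 5%. The SD of the differences over the members was 0.16, against 0.53 over all rows, 0.39 over rows as bright and 0.31 over the brightest 5%. These are descriptions of the list and were not tested against other lists.

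**Figure D2:**
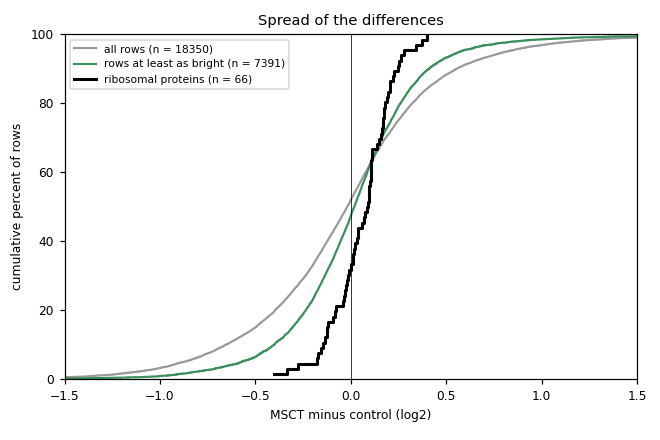
Cumulative percent of rows (vertical axis) by the difference MSCT minus control (log2, horizontal axis) for the 66 ribosomal protein genes, for all rows and for bright rows. The ribosomal protein curve is the steepest, with an SD of 0.16 against 0.53 for all rows.

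The replicates, together with the prior variance, set how small a difference could be seen. The median gap between the 2 arrays of a group was 0.17 for control and 0.11 for MSCT over the members, and 0.31 and 0.24 over all rows. In 42 of the 66 genes the gap between the control rats exceeded the difference between the groups. The difference was the larger in 24, against 8521 of all 18350 rows and 428 of the 918 rows of the brightest 5%. It exceeded the gaps of both groups in 15 members, against 5937 of all rows and 344 of the brightest 5%. The gap was over 0.5 in 5 genes, all in the control group: Rps14, Rpl38, Rps23, Rpl17 and Rpl41. Between the controls it was not a uniform shift, since 37 of the 66 members were brighter on replicate 1, with a median difference of 0.03. In MSCT only 22 members were brighter on replicate 1. Their median of MSCT replicate 1 minus replicate 2 was -0.08, against -0.04 over all rows. That is close in size to the members' median difference between the groups, 0.09.

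The 95% intervals of the differences show what sizes these 4 arrays leave possible. All 66 intervals held 0, and 65 lay within a 2-fold change either way. The highest bound was 0.95, for Rps27, and the median limma standard error was 0.19. When the prior variance was allowed to follow intensity, all 66 intervals lay between -0.77 and 0.76, and 44 lay within 0.5 either way. An absence of calls therefore does not show equal levels for single genes.

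**Figure D3:**
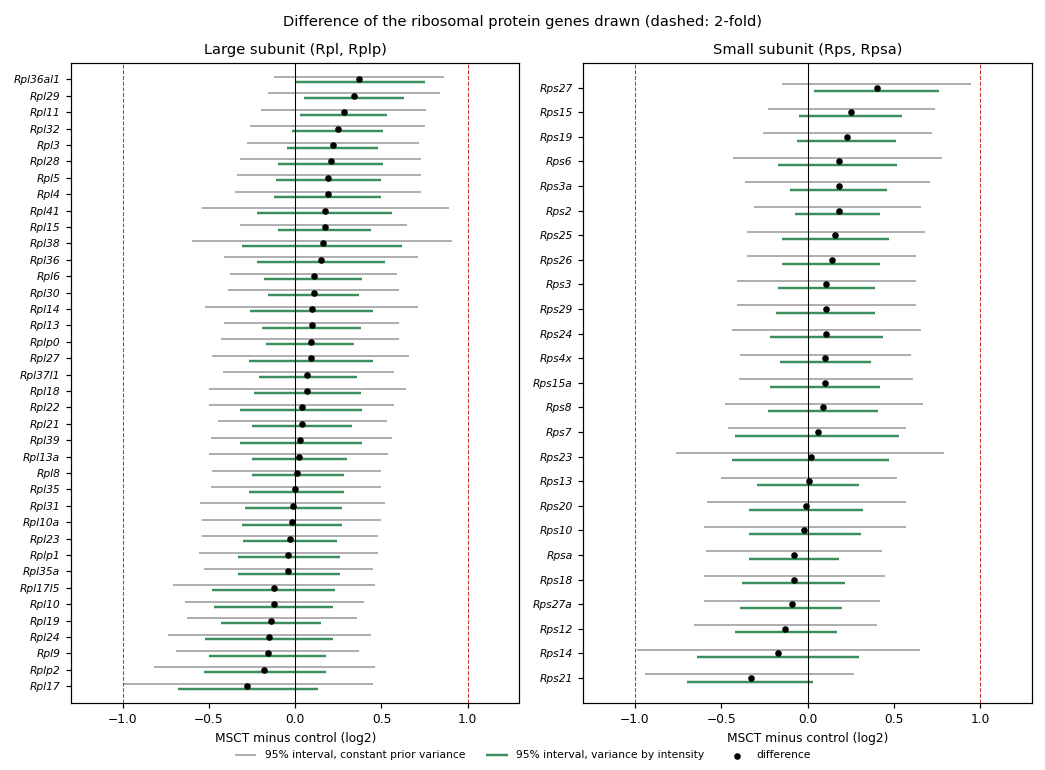
Difference MSCT minus control (log2) of 63 of the 66 ribosomal protein genes, as a point, with its 95% interval from limma with a constant prior variance (grey) and with a prior variance that follows intensity (green). Dashed lines mark a 2-fold change, and every grey interval crosses 0.

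The fit with the variance following intensity called 4 members at an unadjusted p under 0.05, with Rpl11, Rpl29 and Rps27 as higher (6.89% of all rows were) and 1 as lower (7.8% of all rows were). That is 6.06% of the members, where the same fit called 14.7% of all rows and 19.8% of the brightest 5%. An adjusted p of 0.05 was passed in that fit by 2.11% of all rows and by no member. The statistics section of the paper names one-way analysis of variance without tying it to the chips, and for a pair of groups this is a test with equal variances, here the methods' t-test. It called 7 as higher, among them Rpl11, Rpl29, Rpl36al1, Rps15 and Rps2, and 0 as lower, where it called 4.4% and 5.26% of all rows. In all it called 10.6% of the members against 9.66% of all rows and 12.2% of the brightest 5%. No member passed an adjusted p of 0.05 in any fit, the smallest adjusted p of each fit lying between 0.213 and 0.82. Restricting the fit to rows as bright as the dimmest member called Rpl36al1 and Rps27 as higher at an unadjusted p under 0.05, where that fit called 20.2% of its rows, and 3.83% of its rows passed an adjusted p of 0.05. Leaving out the lower 50% of rows called Rpl36al1 alone, where 18.9% of its rows were called and 2.69% passed an adjusted p of 0.05.

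Without a test, 21 members (31.8%) had both MSCT arrays above both control arrays, against 21.3% of all rows and 29.5% of the brightest 5%. Only 4 (6.06%) had both MSCT arrays below both controls, among them Rpl9, Rpl19 and Rps21, against 24.5% of all rows and 22.3% of the brightest 5%. Of the 66, 27 were higher and 7 lower in each of the 4 comparisons that left out 1 array. That count was not made over all rows, so it does not set the members apart from other rows.

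The large subunit carries the peptide bond-forming centre and the stalk that recruits elongation factors. Its 39 genes had a median difference of 0.07, with 27 higher and 12 lower and 0 at an unadjusted p under 0.05, and that median was 0.02 without MSCT replicate 2 and 0.11 with equal array medians. Rplp0, the base of the stalk and the brightest member, measured 14.77 and 14.84 (log2) in control and 14.79 and 14.99 in MSCT. Its groups overlapped and it differed by 0.09 ± 0.19 (limma SE, which includes the prior variance, n = 2 per group). Rplp1 measured 13.73 and 13.52 against 13.62 and 13.56, and Rplp2 measured 14.27 and 13.83 against 13.79 and 13.96. Both acidic stalk proteins, which sit as pairs on Rplp0, thus overlapped between the groups, with differences of -0.04 and -0.18.

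Rpl5 and Rpl11 bind together to a small ribosomal RNA and, when ribosome assembly fails, to Mdm2, the brake on p53. Rpl11 was the steadiest of the higher genes, at 14.30 and 14.27 in control and 14.55 and 14.58 in MSCT. Its difference of 0.28 ± 0.18 (limma SE, n = 2 per group) stayed between 0.26 and 0.30 with single arrays left out. Its adjusted p by limma was 0.587. Rpl5 measured 13.25 and 13.51 against 13.58 and 13.57. Its MSCT arrays also lay above both controls, and the gap between its controls was larger than the difference of 0.19.

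Rpl29, a small basic protein without a bacterial counterpart, measured 13.19 and 13.33 in control and 13.60 on both MSCT arrays, a difference of 0.34 (95% interval -0.16 to 0.84). Rpl36al1, a member named after a copy of Rpl36a, measured 11.05 and 11.07 against 11.37 and 11.49, a difference of 0.37 (95% interval -0.12 to 0.86). Both had groups that did not overlap and both were called by the methods' t-test. Rpl36, one of the dimmest members, measured 12.01 and 11.69 against 11.97 and 12.03 and overlapped.

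Rpl17, which lines the peptide exit tunnel, had the lowest difference of the large subunit, -0.28. It measured 14.14 and 13.53 in control and 13.53 and 13.59 in MSCT. Control replicate 1 alone was high, and without it the difference was 0.03. Rpl38 measured 12.32 and 11.70 in control and 12.26 and 12.07 in MSCT, and Rpl41 measured 13.92 and 14.45 against 14.22 and 14.48. In these genes the control rats lay farther apart than the groups.

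The small subunit reads the message. Its 27 genes had a median difference of 0.10, with 18 higher and 9 lower and 0 at an unadjusted p under 0.05. That median was 0.05 without control replicate 2 and also without MSCT replicate 2. Rps27, a zinc-finger protein of the subunit, had the highest difference of all members and measured 11.83 and 12.04 in control and 12.23 and 12.43 in MSCT. Its groups did not overlap, and it differed by 0.40 ± 0.21 (limma SE, n = 2 per group, limma adjusted p = 0.516). Rps15 measured 12.78 and 12.86 against 13.06 and 13.08. Its replicates lay within 0.1 of each other in both groups, and the groups did not overlap.

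Rps21, a small protein found in eukaryotic ribosomes, had one of the lowest differences of the members. It measured 13.20 and 12.91 against 12.58 and 12.87, a difference of -0.33 (95% interval -0.94 to 0.27). Its nearest arrays, at 12.91 and 12.87, lay closer together across the groups than within either.

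Rps14 and Rps19 are the genes whose loss underlies the anaemia of the 5q- syndrome and of many Diamond-Blackfan patients. Rps14 had the widest replicate gap of all members, at 12.90 and 13.63 in control, and its MSCT arrays at 13.03 and 13.16 lay inside that gap. Rps19 measured 13.38 and 13.31 against 13.53 and 13.61, a difference of 0.23 ± 0.18 (limma SE, n = 2 per group). Its groups did not overlap, and it did not pass (limma adjusted p = 0.65). Rps23, of the decoding centre, measured 12.61 and 13.24 against 12.80 and 13.08, and again the control rats enclosed the MSCT rats.

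Rps6, phosphorylated by the S6 kinases downstream of mTOR, measured 13.33 and 13.64 in control and 13.52 and 13.80 in MSCT. Rps3, at the message entry and also a DNA repair protein, measured 14.11 and 13.92 against 14.18 and 14.07. Rpsa, also known as the laminin receptor, measured 14.67 and 14.77 against 14.55 and 14.73. The groups overlapped in all 3, with differences of 0.18, 0.11 and -0.08. Rps2, among the 3 brightest members, measured 14.51 and 14.56 against 14.71 and 14.72 and did not overlap, with a difference of 0.18. Rps7, the dimmest member, measured 10.38 and 10.20 against 10.29 and 10.40 and overlapped.

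Some ribosomal proteins have a related copy with its own expression pattern, and for 6 of these pairs 1 partner was a member with a row, and the partner was not analysed here. Beside Rps27, these were Rpl3 (14.03 and 14.05 against 14.33 and 14.20), Rpl22 (12.03 and 12.10 against 12.23 and 11.97) and Rpl39 (11.96 and 11.97 against 11.88 and 12.11). Rpl3 did not overlap between groups and the other two did. Rpl10, which joins the large subunit late, measured 12.25 and 12.08 against 11.98 and 12.10, and the X-linked Rps4x measured 14.07 and 13.95 against 14.07 and 14.15. Ribosomal protein genes also have many pseudogenes, 839 of the 1140 symbols of the gene table that fit the rule, so signal of a probe may hold more than 1 source.

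Grouped by their starts, the 21 genes with the run of C and T at the first base had a median difference of 0.0, with 11 higher and 10 lower. The 32 genes with another start had a median of 0.10, with 23 higher and 9 lower, and the 13 genes without a sequence had a median of 0.11. Rps27, with the highest difference, is in the first of these classes. No difference between the classes was tested.

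Some ribosome components lie outside the naming rule. Fau, whose product is cleaved to a small subunit protein, had a difference of -0.05 and Rack1, the scaffold on the small subunit, 0.09. The nascent chain factors Tpt1, Btf3 and Nap1l1 had differences of 0.05, 0.09 and 0.24, and 0 of these 5 genes had an unadjusted p under 0.05 by limma.

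The genes that assemble ribosomes were mostly higher in MSCT, and none passed a limma adjusted p of 0.05. Of 36 measured genes of ribosome biogenesis (65 listed), 32 were higher in MSCT and 4 lower, with a median of 0.28, and 5 rose at an unadjusted p under 0.05, where 4.8% of all rows did. Bysl, needed for small subunit maturation, measured 9.83 and 10.51 in control and 11.30 and 11.20 in MSCT and passed the screen with a difference of 1.08 (limma adjusted p = 0.337). The others that rose were the helicase Ddx18 (0.90), the endonuclease Nob1 (0.64), the nucleolar protein Nolc1 (0.63) and the export factor Ltv1 (0.56). The lowest were Rexo4, at 11.17 and 11.05 against 10.71 and 10.30 with a difference of -0.60, and Pes1 at -0.09, neither of which passed (limma adjusted p = 0.421 and adjusted p = 0.869).

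The initiation list held factors that load the ribosome on the message and also inhibitors of that step. These inhibitors, the kinases Eif2ak1, Eif2ak2 and Eif2ak3 and the binding proteins Eif4ebp1 and Eif4ebp2, were all higher. In the whole list 25 of 29 measured genes (48 listed) were higher, with a median of 0.20, which therefore does not describe the loading factors alone. Of these, 1 rose at an unadjusted p under 0.05: Eif4ebp1, the cap-binding inhibitor that mTOR switches off, at 11.45 on both controls and 12.03 and 12.28 in MSCT (difference 0.70, limma adjusted p = 0.338). The next highest was the stress kinase Eif2ak3 (0.59, limma adjusted p = 0.431), which did not pass, and the lowest were Eif3a (-0.23) and Pabpc1 (-0.18). Elongation factors were higher in 6 of 7 measured genes, with a median of 0.22, or 0.07 without control replicate 1, and 0 at p under 0.05. Their ends were Eef1d (0.24) and Eef2 (0.23), and Eef2k (-0.34), the kinase that inhibits Eef2, followed by Eef1g (0.10).

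All 7 measured genes of RNA polymerase I, which transcribes ribosomal RNA, were higher with a median of 0.26 and none at an unadjusted p under 0.05 by limma, from Polr1a (0.02) and Polr1c (0.09) to Polr1b (0.38) and Taf1a (0.56). The mitochondrial ribosomal proteins were higher in 18 of 24 measured genes (75 listed), with a median of 0.19 and 0 at p under 0.05 by limma. That median was 0.12 without control replicate 1 and 0.04 without MSCT replicate 2. Mrpl38 (0.58) and Mrpl19 (0.53) were highest, and Mrps15 (-0.29) and Mrpl2 (-0.23) lowest. The cytosolic ribosomal proteins, at 0.09, had a lower median than either list with all 4 arrays, and the difference between lists was not tested.

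Among 15 measured genes of mTOR and Myc control, 5 were higher and 10 lower, with a median of -0.19, or -0.07 without control replicate 1. Myc, which drives transcription of ribosome genes, measured 10.50 and 10.02 in control and 11.18 and 11.33 in MSCT and rose (difference 1.00, limma adjusted p = 0.324), the only one of the list at an unadjusted p under 0.05. Mycn (-0.68) and Tsc1 (-0.53), a brake on mTOR, were lowest. Of 15 measured genes of S phase and mitosis, 14 were lower with a median of -0.43, and 3 fell at an unadjusted p under 0.05, where 7.17% of all rows did. Cdk1, the mitotic kinase, passed the screen at 9.75 and 9.74 against 8.54 and 8.48 (difference -1.23, limma adjusted p = 0.26). Ccna2 (-0.99) and Aurkb (-0.84) also fell, Ccnb2 was lowest at -1.26 without passing (limma adjusted p = 0.477), and the highest were Pcna (0.18) and Rrm2 (-0.09). Over these lists together, 7 of 139 genes (5.04%) were higher and 3 (2.16%) lower at p under 0.05, near and below the 4.8% and 7.17% of all rows. The 7 became 1 without MSCT replicate 1 and 3 without MSCT replicate 2, while the 3 became 6 without either control array.

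**Figure D4:**
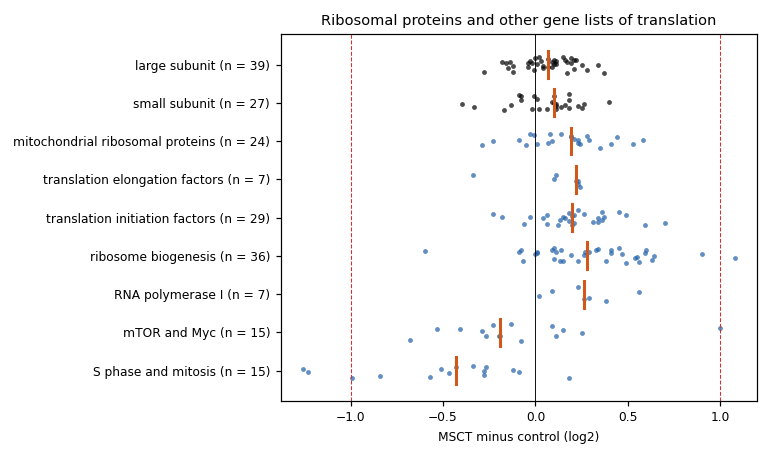
Difference MSCT minus control (log2) of each measured gene, as a point, for the large and small subunit ribosomal proteins and the other lists of the translation pathway, with each list's median as an upright bar, a 2-fold change as dashed lines and the number of genes beside its name. The ribosomal proteins lie between -0.40 and 0.40, while ribosome biogenesis reaches 1.08 and S phase and mitosis -1.26.

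Colon markers were present, with 14 of 18 epithelial markers measured and Krt19 between 14.69 and 15.09 on the 4 arrays. Markers of several cell types differed between the groups, though not those of smooth muscle. Of the macrophage list, 8 of 9 measured genes rose at an unadjusted p under 0.05, where 4.8% of all rows did, and their summed intensity was 17521 and 18975 in control and 25207 and 29538 in MSCT. The smooth muscle markers summed to 171485 and 141287 against 159204 and 154976, so the groups overlapped. The epithelial markers summed to 227589 and 233636 against 260664 and 251655. Of these 14, 12 were higher and 2 lower, with 1 of each at an unadjusted p under 0.05 by limma. Markers of enteric neurons and glia went the other way, with 9 of 11 lower, 3 of them at an unadjusted p under 0.05 (7.17% of all rows), and sums of 11761 and 11755 against 8449 and 9477. The 6 measured lymphocyte and plasma cell markers were all higher, 1 of them at an unadjusted p under 0.05, with sums of 4254 and 4831 against 5639 and 6673. The 6 fibroblast markers summed to 52432 and 37692 against 54822 and 59289. Of these, 5 were higher, Dcn and Lum by only 0.01 and 0.03, and 1 lower, with 1 at an unadjusted p under 0.05. The 3 pancreas markers, of tissue that a colon piece should lack, summed to 1986 and 1725 against 3524 and 5697. Cela1 carried most of this rise, at 1386 and 1365 against 2648 and 5418. Cel overlapped between the groups, and Prss1 was lower at -0.50. The summed ribosomal protein intensity was 802385 and 800744 in control and 815510 and 852062 in MSCT. The part of these markers in the ribosomal protein values was not tested.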

How the data were processed

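Colon RNA of 4 rats was labelled with Cy3 and hybridized to one-color NimbleGen expression arrays, 1 array per rat, scanned with an Axon GenePix scanner and extracted with NimbleScan 2.6. The submitters' processing notes name RMA, without its role. The deposited value of each row is a summarized intensity on a linear scale, made by the authors per accession. Of 26420 rows, 8070 were blank on all 4 arrays and the rule behind the blanks is not given in the sources used here, leaving 18350. Rows were named through RefSeq accessions in the gene table of assembly GRCr8.

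From these values log2 was taken with no pseudocount, further scaling or filter. The groups were compared by lmFit and eBayes of limma (version 3.58.1, R version 4.3.3, 2 residual and 2.457 prior degrees of freedom), two-sided, with Benjamini-Hochberg adjustment over all 18350 rows. The screen asked for an unadjusted p under 0.05 and a change over 2-fold, the study's limits. With 2 arrays a group, the smallest two-sided p of an exact permutation test is 0.333, and none was run. The limma code was tested on simulated data. Array number limits the precision. The standard errors, intervals and p-values of limma join the spread between the rats' arrays to a prior variance taken over the rows. They are therefore not the replicate spread of a gene alone.

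The members and gene lists were chosen with earlier results of these data known. Named members were the 5 highest and 5 lowest differences, the 3 brightest and 3 dimmest, the stalk genes, Rpsa, Rps6, Rps3, Rpl5, Rpl11, Rps19, Rps14 and 6 genes with a related copy (Rps27, Rpl22, Rpl3, Rpl39, Rpl10 and Rps4x). No member passed an unadjusted p of 0.05, which would also have named it. Some genes that these rules name are not reported here. Of other lists, the genes past the screen and the 2 highest and 2 lowest differences were to be named. Rps15, Rpl38, Rps23, Rpl41, Rpl9, Rpl19, Ddx18, Nob1, Nolc1, Ltv1, Ccna2 and Aurkb were named after their values were seen. Alternatives were arrays set to equal medians, quantile normalization, a filter on the lower 25% or 50% of rows, a variance prior that follows intensity (trend and robust), the methods' t-test, array weights, a replicate block, each array left out, and a fit on rows as bright as the dimmest ribosomal protein gene, added after seeing the data.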

Additional observations from a re-analysis of the deposited data

How the results depend on the processing

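Array number and probe signal limit these results: 4 rats, summarized intensities, and no probe-level data to separate a gene from its pseudogenes. No ribosomal protein gene passed the screen or an adjusted p of 0.05 under any alternative run. At an unadjusted p under 0.05 the count of higher ribosomal protein genes went from 0 to 1 without the lower 50% of rows, 3 with the intensity-following variance, 7 by the methods' t-test and 2 in the fit on rows as bright as the dimmest member, and the count of lower genes from 0 to 1 with the intensity-following variance. The members' median difference ranged from 0.03 to 0.11 with single arrays left out. For the large subunit it was 0.05 after quantile normalization, 0.11 with equal array medians and 0.02 to 0.09 with single arrays left out. With single arrays left out, the median was 0.07 to 0.19 for elongation factors, 0.22 to 0.32 for ribosome biogenesis and -0.19 to -0.07 for the mTOR and Myc list. Among the other pathway lists, 7 genes were higher and 3 lower at an unadjusted p under 0.05. The higher count was 15 without the lower 50% of rows, 14 with the intensity-following variance and 1 to 9 with single arrays left out. The lower count was 5 without the lower 25% of rows, 8 with the intensity-following variance, 6 by the methods' t-test and 3 to 6 with single arrays left out. The cause of these moves was not tested.

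The labels number the arrays 1 and 2 in each group without saying that a number ties the rats together. With the replicate number as a block, 0 ribosomal protein genes were called by limma at an unadjusted p under 0.05, their smallest adjusted p was 0.42 and their median difference was 0.09, while the lower count among the other lists was 5. The difference of replicate 1 minus replicate 2 correlated between the groups at 0.29 across the members and 0.23 across all rows, which are correlations across genes.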
